A study of Homo sapiens with 24 samples.

Results

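The neurotrophin receptor NGFR (also called p75NTR), the TRK receptors NTRK2 and NTRK3, the sortilin-family receptors SORT1 and SORCS2 and the ligand BDNF were followed in a diffuse midline glioma (DMG) cell line given a PRMT5 inhibitor. These 6 genes were taken by name from a table of 58676 gene identifiers, and each was found once. HSJD-DIPG-007, an established patient-derived DMG line whose labelled genotype is H3F3A K27M, ACVR1 R206H and PIK3CA MIS, was used for every library, so treatment groups share all 3 alleles. Spheroids received vehicle or LLY-283, an inhibitor of the arginine methyltransferase PRMT5, at the concentration that reduces growth by 40%, and the methods add fresh medium with a second dose after 5 days. The 24 libraries comprised 12 vehicle and 12 LLY-283 libraries. Days 0 and 5 were covered by 3 libraries per treatment, day 7 by 2, and the remaining days (1, 2, 3 and 10) by 1. Libraries of a group were described as technical repeats, so p-values measure only the spread between these libraries and not that between independent cultures.

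Neurotrophins are secreted growth factors that are made as precursors and then cleaved. The mature forms act through the TRK kinases, with BDNF as the main ligand of NTRK2 (TRKB) and NTF3 as that of NTRK3 (TRKC). NGFR is a death-domain receptor of the TNF receptor family that binds all neurotrophins. With SORT1 or SORCS2 it forms the receptor for the uncleaved precursors, and with RTN4R and LINGO1 it forms a receptor for myelin proteins that limits neurite growth. NGFR is also used as a surface marker of neural crest cells, Schwann cells and some stem-like tumour cells.

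Library totals lay between 13835205 and 23190369 estimated counts, with a median of 18688160. Expression is given as CPM (counts scaled to a common library total) after TMM normalization, a scaling for library size and composition. Of 8 oligodendrocyte precursor markers, 7 had a median of at least 5 CPM, and SOX10 stayed under 1 CPM in every library. Of 7 Schwann and neural crest markers, SOX10, FOXD3 and ERBB3 had medians under 1 CPM, with FOXD3 at 0 counts throughout. The summed level of 4 matrix genes (FN1, COL1A1, COL1A2 and COL3A1) was 160.5 CPM in vehicle repeat 3 of day 5, 83.7 CPM in vehicle repeat 1 of day 7 and 79.1 CPM in the LLY-283 library of day 2, against 7.29 to 17.4 CPM in the other 21. At day 7 the repeat 2 libraries stood apart from their labels. On a scale set by the genes called at day 5, members aside, where the mean vehicle library is 0% and the mean LLY-283 library 100%, the library labelled LLY-283 repeat 2 lay at -7.8% and that labelled vehicle repeat 2 at 47.3%. Repeat 1 lay at 73% for LLY-283 and -2.67% for vehicle, and day 7 values below are given by library and label, with no test.

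NGFR was the member that separated the treatment groups most. From day 0 to day 5 it rose in vehicle libraries and fell in LLY-283 libraries, so that at day 5 LLY-283 held 0.487 times the vehicle level. The study named NGFR from these day 5 libraries, so its day 5 values are a description and not independent evidence. By RT-qPCR, which was not re-analysed here, the study also listed NGFR as downregulated by LLY-283. In bulk RNA, fewer NGFR-expressing cells and less NGFR RNA per cell cannot be told apart. NGFR (ENSG00000064300) spans chr17:49495293-49515008 on the plus strand of GRCh38 and is protein coding.

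At day 0, NGFR was at 30.9, 33.1 and 31.9 CPM in the vehicle libraries and at 30.5, 30.6 and 30.2 CPM in the LLY-283 libraries. The groups were separated by less than 1 CPM at their nearest libraries, and the log2 difference of -0.09 (SE 0.052) did not pass edgeR's quasi-likelihood test (adjusted p = 0.87). At day 5, the vehicle libraries were at 50.8, 56.5 and 49.2 CPM, and the LLY-283 libraries were at 24, 25.3 and 25.5 CPM. The lowest vehicle library thus lay far above the highest LLY-283 library. Group means were 52.2 ± 3.85 CPM for vehicle and 24.9 ± 0.84 CPM for LLY-283 (SD, n = 3), a log2 difference of -1.04 (SE 0.061, edgeR adjusted p = 3.4e-13). Without vehicle repeat 3 of day 5, which had the high matrix genes, the difference was -1.08 (edgeR adjusted p = 1.8e-10).

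The day 5 difference held a change in each direction. Vehicle rose from 32 ± 1.07 CPM at day 0 to its day 5 mean, a log2 change of 0.69 (SE 0.058, edgeR adjusted p = 6.9e-11). LLY-283 started at 30.4 ± 0.199 CPM and fell by 0.27 on the log2 scale (SE 0.057, edgeR adjusted p = 0.00037). The change with time was thus larger in vehicle than in LLY-283 libraries. The change in treatment effect from day 0 to day 5, an interaction term fitted to the 12 libraries of those days, was -0.95 (SE 0.08, edgeR adjusted p = 2e-09). In 1 fit of all 22 libraries of days 0 to 7, which takes its spread in part from the discordant day 7 libraries, the same interaction was -0.99 with an edgeR adjusted p of 0.13, and the day 5 difference was -1.06 with an adjusted p of 0.018, above the threshold of 0.01.

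**Figure D1:**
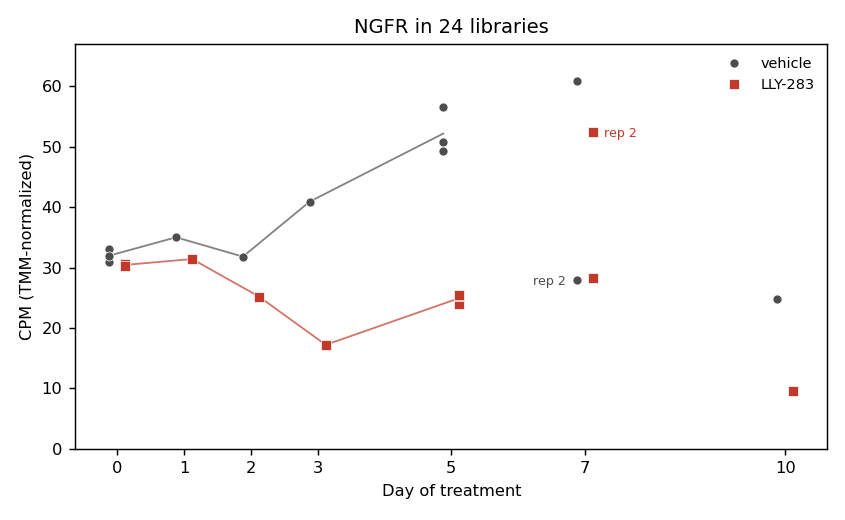
NGFR level (CPM, TMM-normalized) in each of 24 libraries against day of treatment, with vehicle as grey circles, LLY-283 as red squares, and lines through the group means of days 0 to 5. The vehicle libraries rise to between 49.2 and 56.5 CPM at day 5 while the LLY-283 libraries lie between 24 and 25.5 CPM, and at day 7 the repeat 2 libraries are on the opposite sides.

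The days with 1 library per group were outside the day 5 contrast, but the study also used its time course of days 0 to 7 in choosing genes, so days 1, 2 and 3 are not independent of that choice. NGFR was at 35 CPM in vehicle and 31.4 CPM in LLY-283 at day 1, and at 31.8 and 25.2 CPM at day 2. At day 3 it was at 40.9 and 17.2 CPM, and at day 10 at 24.8 and 9.49 CPM. LLY-283 was the lower library on all 4 days, and the gap was wider at days 3 and 10 than at days 1 and 2. The log2 ratios of LLY-283 to vehicle were -0.16 at day 1 (95% interval -0.31 to 0.00), -0.33 at day 2 (-0.50 to -0.16), -1.25 at day 3 (-1.45 to -1.05) and -1.39 at day 10 (-1.64 to -1.14). These are exact binomial intervals that cover counting error only. With the 4 days as repeats of the treatment difference and day as a factor, the mean log2 difference was -0.72 (SE 0.29, 3 residual degrees of freedom), which did not pass edgeR's quasi-likelihood test (adjusted p = 0.36). It ranged from -0.95 without day 1 to -0.53 without day 3, with edgeR adjusted p between 0.22 and 0.63. Without day 2, whose LLY-283 library had the high matrix genes, it was -0.88.

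At day 7, NGFR was at 60.9 CPM in the library labelled vehicle repeat 1 and at 28 CPM in that labelled vehicle repeat 2. It was at 28.3 CPM in the library labelled LLY-283 repeat 1 and at 52.5 CPM in that labelled LLY-283 repeat 2. By label, the group means of 44.5 ± 23.2 and 40.4 ± 17.2 CPM (SD, n = 2) overlap. The log2 ratio was -1.11 between the repeat 1 libraries and 0.91 between the repeat 2 libraries. These pairs follow the repeat number alone, which is no known pairing of libraries, and other pairs would give other ratios. The libraries at -7.8% and -2.67% of the day 5 scale held 52.5 and 60.9 CPM, and those at 47.3% and 73% held 28 and 28.3 CPM.

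Over the 14 groups of treatment and day, the lowest NGFR mean was in LLY-283 at day 10 and the highest in vehicle at day 5, a 5.5-fold span. LLY-283 at day 3 came next above the lowest. Vehicle at day 10 (24.8 CPM), LLY-283 at day 5 (24.9 CPM) and LLY-283 at day 2 (25.2 CPM) followed and lay within the spread of the 3 day 5 libraries. Both day 0 groups and the LLY-283 library of day 1 and vehicle library of day 2 lay between 30.2 and 33.1 CPM, without a clear order. NGFR in vehicle was thus not on a steady course: it was 40.9 CPM at day 3, 52.2 CPM on average at day 5 and 24.8 CPM at day 10. The vehicle library of day 10 also lay at 60.6% of the day 5 scale.

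NTRK3, the other neurotrophin receptor with a measurable level, went in the opposite direction at day 5. NTRK3 (ENSG00000140538) spans chr15:87859751-88256791 on the minus strand. At day 0 it was at 1.51, 2.18 and 2.45 CPM in vehicle and at 2.36, 2.09 and 2.42 CPM in LLY-283, and the groups overlapped. At day 5 it was at 3.11, 4.01 and 4.43 CPM in vehicle and at 5.37, 5.94 and 6.05 CPM in LLY-283. All 3 LLY-283 libraries were above the highest vehicle library, and the log2 difference was 0.62 (SE 0.16, edgeR adjusted p = 0.0029). The call was lost with DESeq2 (adjusted p = 0.017) and when vehicle repeat 1 or LLY-283 repeat 2 or 3 of day 5 was left out, with log2 differences of 0.47, 0.60 and 0.58 (edgeR adjusted p = 0.041, 0.016 and 0.016).

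NTRK3 rose with time in both treatment groups. The log2 change from day 0 to day 5 was 0.89 in vehicle (SE 0.22, edgeR adjusted p = 0.0014) and 1.35 in LLY-283 (SE 0.16, edgeR adjusted p = 9.8e-08). The vehicle rise was at an adjusted p of 0.011 without vehicle repeat 3 of day 5. The change in treatment effect, 0.47 (SE 0.27), did not pass the test (edgeR adjusted p = 0.22), so a growth of the NTRK3 difference from day 0 to day 5 was not shown. Outside day 5 the groups were close. NTRK3 was at 3.37 CPM in both libraries of day 1, at 3.34 CPM in vehicle and 3.35 CPM in LLY-283 at day 2, and at 4.04 and 3.33 CPM at day 3. At day 7 it was at 4.4 and 4.28 CPM in vehicle and at 4.77 and 3.94 CPM in LLY-283, and at day 10 at 4.08 and 4.81 CPM. The mean log2 difference over days 1, 2, 3 and 10 was 0.00 (SE 0.15, edgeR adjusted p = 1).

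SORT1, which sorts proteins through the Golgi and endosomes and is the co-receptor of NGFR for precursor neurotrophins, was the member with the highest level. SORT1 (ENSG00000134243) spans chr1:109309568-109397918 on the minus strand. It rose over 5 days in both treatment groups and rose further with LLY-283. At day 0 it lay between 85.1 and 87.6 CPM in vehicle and between 83.3 and 92.4 CPM in LLY-283. At day 5 it was at 172.7, 189 and 185.5 CPM in vehicle and at 228.7, 217.4 and 207.6 CPM in LLY-283. The groups did not overlap at day 5, and every day 5 library was above every day 0 library. The log2 difference at day 5 was 0.28 (SE 0.039, edgeR adjusted p = 2e-06). From day 0 to day 5, the log2 change was 1.06 in vehicle (SE 0.041, edgeR adjusted p = 4.6e-18) and 1.33 in LLY-283 (SE 0.04, edgeR adjusted p = 1.7e-18).

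The change in treatment effect for SORT1 was 0.27 (SE 0.06, edgeR adjusted p = 0.0013). It was 0.21 without LLY-283 repeat 2 of day 0 (edgeR adjusted p = 0.017) and 0.23, not called, in the fit of all 22 libraries. SORT1 was above its day 0 libraries by day 1, at 144.9 CPM in vehicle and 139.9 CPM in LLY-283. It was at 134.3 and 135.1 CPM at day 2, at 131.4 and 176.1 CPM at day 3 and at 182.2 and 191.5 CPM at day 10. The log2 ratio of LLY-283 to vehicle was 0.42 at day 3 (95% interval 0.34 to 0.50) and 0.07 at day 10 (0.00 to 0.14). At day 7 it was 0.17 between the repeat 1 libraries and -0.18 between the repeat 2 libraries. By these pairs, made by repeat number alone, SORT1 changed sides with NGFR at day 7, in the opposite direction. The mean difference over days 1, 2, 3 and 10 was 0.12 (SE 0.072, edgeR adjusted p = 0.45).

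The sequence just upstream of SORT1 is shown since SORT1 had the largest rise with time in vehicle among the tested members. It is the RefSeq window of 250 bases before the gene start at chr1:109397919-109398168 of GRCh38.p14, minus strand, written 5′ to 3′ with GC boxes in capitals.
SORT1: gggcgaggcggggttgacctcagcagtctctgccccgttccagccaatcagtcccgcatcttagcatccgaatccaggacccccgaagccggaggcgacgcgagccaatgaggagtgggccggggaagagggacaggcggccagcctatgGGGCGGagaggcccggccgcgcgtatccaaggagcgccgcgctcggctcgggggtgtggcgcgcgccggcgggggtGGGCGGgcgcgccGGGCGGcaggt
GC boxes were searched as GGGCGG on both strands, CCAAT boxes as CCAAT and cyclic-AMP response elements as TGACGTCA, also on both strands. The SORT1 window held 3 GC boxes, 2 CCAAT boxes and 0 cyclic-AMP response elements, with a GC content of 74%. Of 35116 windows of this length, 42.6% held at least 1 GC box, 32% a CCAAT box and 1.65% a cyclic-AMP response element. The NTRK3 window held 2 GC boxes and no CCAAT box at a GC content of 73.2%. The windows of the near-silent NTRK2 and BDNF held 1 GC box each at GC contents of 50% and 56%, with 1 CCAAT box in NTRK2 and 0 in BDNF. The NTRK2 window, chr9:84669056-84669305, precedes a RefSeq start that lies inside the gene span given for NTRK2 below. It is therefore not upstream of that span and is not directly comparable with the SORT1 window. Those of NTRK3 and BDNF overlap the ends of their gene spans. A match describes the letters and is no evidence of binding.

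SORCS2, a sortilin relative that also pairs with NGFR and with TRK receptors in neurons, rose from day 0 to day 5 as SORT1 did, at a lower level. On days with 1 library per group the 2 genes differed. The log2 ratio of LLY-283 to vehicle at day 3 was 0.42 for SORT1 and -0.19 for SORCS2. In vehicle at day 10, SORCS2 was at 14.9 CPM against a day 5 mean of 20.7 CPM, and SORT1 was at 182.2 against 182.4 CPM. SORCS2 (ENSG00000184985) spans chr4:7192538-7742836 on the plus strand. At day 0 it was at 12, 12.8 and 12 CPM in vehicle and at 13, 11.1 and 13.3 CPM in LLY-283, and the groups overlapped. At day 5 it was at 21.2, 21 and 19.9 CPM in vehicle and at 23.8, 24.3 and 24.9 CPM in LLY-283. The day 5 groups did not overlap, and the log2 difference was 0.26 (SE 0.069, edgeR adjusted p = 0.0038). This call needed nearly every library: it was lost with DESeq2 (adjusted p = 0.034), without any 1 of the 3 vehicle libraries (0.26, 0.26 and 0.23, edgeR adjusted p = 0.015, 0.014 and 0.024) and without LLY-283 repeat 2 or 3 (0.26 and 0.23, edgeR adjusted p = 0.017 and 0.027).

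SORCS2 rose with time by 0.74 on the log2 scale in vehicle (SE 0.079, edgeR adjusted p = 8.4e-09) and by 0.98 in LLY-283 (SE 0.076, edgeR adjusted p = 7.2e-11). The change in treatment effect of 0.25 (SE 0.1) did not pass the test (edgeR adjusted p = 0.086). SORCS2 was at 19.1 CPM in vehicle and 20 CPM in LLY-283 at day 1, at 21.9 and 22.2 CPM at day 2 and at 23.7 and 20.7 CPM at day 3. At day 7 it was at 20 and 21.7 CPM in vehicle and at 20.5 and 18.3 CPM in LLY-283, and at day 10 at 14.9 and 18.7 CPM. LLY-283 was the higher library at days 1, 2 and 10 and the lower at day 3. The mean difference over these 4 days was 0.05 (SE 0.082, edgeR adjusted p = 0.8).

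**Figure D2:**
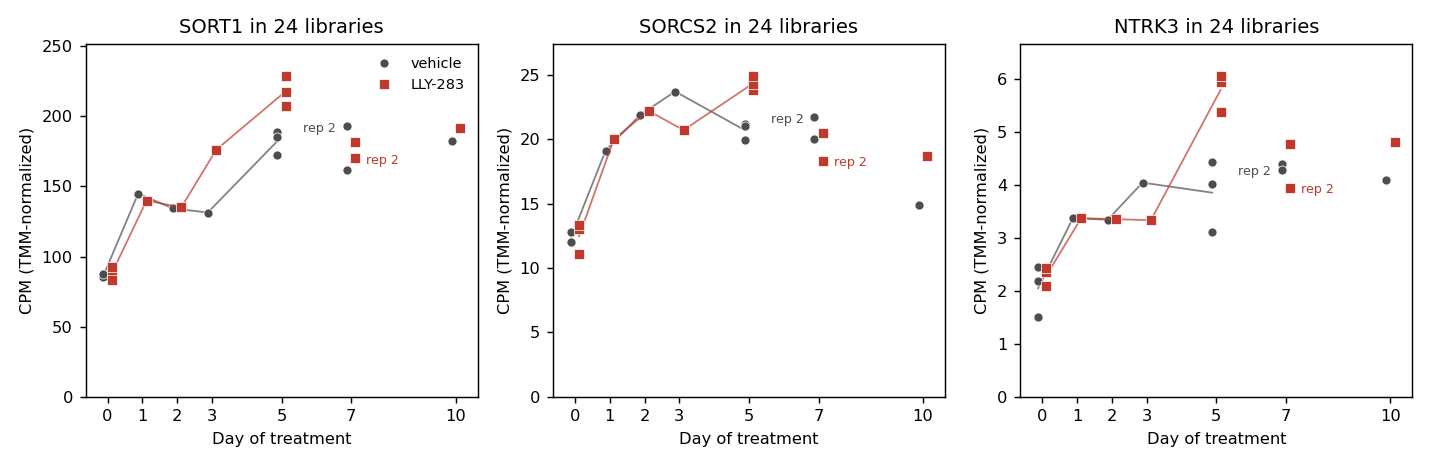
Levels of SORT1, SORCS2 and NTRK3 (CPM, TMM-normalized) in each of 24 libraries against day of treatment, with vehicle as grey circles, LLY-283 as red squares, and lines through the group means of days 0 to 5. All 3 genes are above their day 0 libraries from day 1 on, and at day 5 the LLY-283 libraries are above the vehicle libraries, for SORT1 at 207.6 to 228.7 CPM against 172.7 to 189 CPM.

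NTRK2 and BDNF were at or near 0. NTRK2 (ENSG00000148053, chr9:84668375-85095751, plus strand) had between 0 and 4 counts in a library and 21 counts in all, with 0 counts in 13 of 24 libraries. BDNF (ENSG00000176697, chr11:27654893-27722058, minus strand) had between 0 and 2 counts, 10 in all, with 0 counts in 17 libraries. A count of 0 allows a level of up to 3 counts, which is 0.129 to 0.217 CPM depending on the library. NTRK2 had 9 counts over 12 vehicle and 12 over 12 LLY-283 libraries, and BDNF had 3 and 7. Both stayed under the filter on low counts, so a difference between the treatment groups was not detectable at this depth. The ligands NTF3 and NTF4 were as low, at 0 counts and 45 counts in all libraries together, with at most 6 in a library. SORCS3 had 5 counts in all and SORCS1 had 36.

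Per kilobase of the canonical transcript, the median level over 24 libraries was 23.7 CPM for SORT1, 9.03 for NGFR, 3.25 for SORCS2 and 0.183 for NTRK3. The canonical NTRK3 transcript has 20018 bases, and shorter isoforms would be scaled differently. Genes on the opposite strand share exon bases with 2 members. NGFR-AS1 shares 202 bases with NGFR and had 63 counts over all libraries, 0.433% of the NGFR total, and ENSG00000279036 shares 924 bases and had 11 counts. BDNF-AS, which shares 988 bases with BDNF, had 168 counts against 10 for BDNF. The library kit keeps strand, and whether the counting used it is not given in the sources used here, so reads of BDNF and BDNF-AS may not be separable.

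Counted over comparisons, 4 of the 6 members passed the filter at day 5 and all 4 were called at an adjusted p under 0.01, 3 higher and 1 lower in LLY-283, where 26.1% of 16491 genes tested were called (12% higher and 14.1% lower). With time in vehicle the same 4 were called, all higher, against 38.9% of 17106 genes tested (22.2% higher and 16.7% lower). With time in LLY-283 they were called again, 3 higher and NGFR lower, against 42.4% of 17341 (22.9% higher and 19.5% lower). For the change in treatment effect, NGFR was called lower and SORT1 higher of 4 tested, against 14.9% of 18369 (6.78% higher and 8.15% lower). These comparisons share libraries, and the count for DESeq2 at day 5 was 2, NGFR and SORT1. At day 0, edgeR called 0 of 4 tested members, against 0.0169% of 17780 genes, and 1012 genes but no member had an unadjusted p under 0.05. Over days 1, 2, 3 and 10 it called 0 of 4, against 0.0153% of 19557 genes (0.0102% higher and 0.00511% lower), and 3193 genes but no member had an unadjusted p under 0.05. DESeq2 also called 0 members in both, although over days 1, 2, 3 and 10 it gave an adjusted p for SORT1 alone. With its independent filtering turned off, a setting added after the values were seen, NGFR was at -0.77 with a DESeq2 adjusted p of 0.32.

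**Figure D3:**
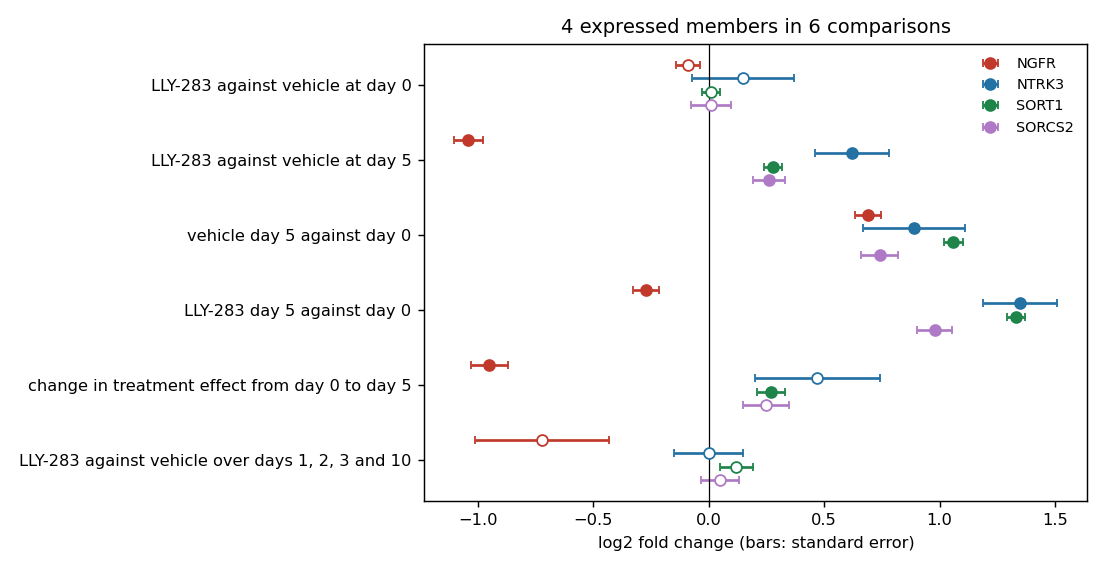
Log2 fold change with its standard error (bars) of the 4 members above the filter in 6 comparisons, filled where the edgeR adjusted p is under 0.01. NGFR is at -1.04 at day 5 while NTRK3, SORT1 and SORCS2 are at 0.62, 0.28 and 0.26, and with time in vehicle all 4 are above 0.

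**Figure D4:**
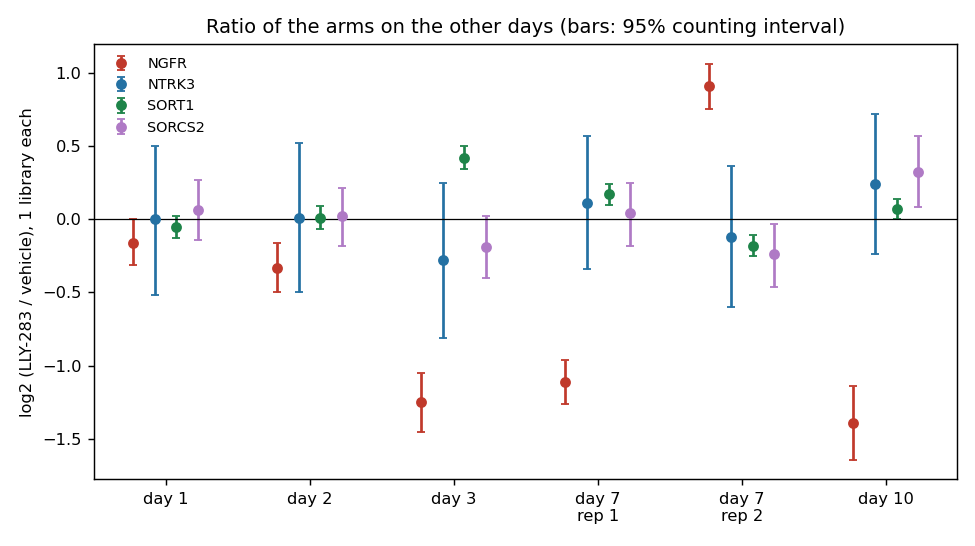
Log2 ratio of the LLY-283 to the vehicle library for 4 members on the days outside the day 0 and day 5 tests, with 95% counting intervals (bars) and 1 library of each group per ratio. NGFR is below 0 at days 1, 2, 3 and 10 and in the day 7 repeat 1 pair, and at 0.91 in the day 7 repeat 2 pair. The day 7 libraries are paired by repeat number alone.

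Markers of cell types were summed per library at day 5, beside the member results. The counts of called markers below stand beside 12% higher and 14.1% lower of all 16491 genes tested at day 5. With so few markers per list, they are a description only. The 8 oligodendrocyte precursor markers summed to between 5856 and 6112 CPM in vehicle and between 6628 and 6879 CPM in LLY-283. Of 7 tested markers, 4 were higher and 1, OLIG2 (-0.13), was lower. PTPRZ1 and CSPG4, with the largest medians (3044 and 1239 CPM), weigh most in this sum, and their log2 differences were 0.28 and 0.07 (CSPG4 not called). The 7 Schwann and neural crest markers summed to between 295.6 and 305.2 CPM in vehicle and between 291.3 and 322.4 CPM in LLY-283, so the groups overlapped. S100B, with a median of 286.2 CPM, weighs most in this sum, and 1 of 4 tested markers was higher. The 7 neuron markers summed to between 421.7 and 436.8 CPM in vehicle and between 500.4 and 512.7 CPM in LLY-283. MAP2, with a median of 347.9 CPM, weighs most in this sum. Of 6 tested, 2 were higher, with MAP2 at 0.31, and 1 was lower, TUBB3 at -0.23. The 6 astrocyte markers summed to between 410.1 and 431.3 CPM in vehicle and between 344.8 and 385 CPM in LLY-283, with AQP4 at 0 counts throughout. Of 4 tested astrocyte markers, 1 was higher and 2 lower, with a median log2 difference of 0.22. GFAP was the higher one at 1.26 (edgeR adjusted p = 4.9e-05), with a median of only 1.6 CPM over all libraries. SLC1A3 (-0.18, median 315.9 CPM) and GJA1 (-0.23, median 84.3 CPM) were the lower ones. The 10 fibroblast markers summed to between 220.2 and 384.2 CPM in vehicle, the highest being the library of high matrix genes, and to between 301.7 and 303 CPM in LLY-283. THY1 had the largest median, 136.5 CPM. Of 9 tested, 3 were higher and 0 lower, with a median log2 difference of -0.63. The part of these marker levels in the member results was not tested.

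The rest of the pathway was described from lists of 69 further genes. At day 5, 55 of them passed the filter, and 10 were higher and 6 lower in LLY-283, which is 29.1% called against 26.1% of all genes. Their median log2 difference was 0.03, against 0.02 for all genes tested. With time, 25 rose and 12 fell in vehicle, 67.3% against 38.9%, and 22 rose and 10 fell in LLY-283, 58.2% against 42.4%. For the change in treatment effect, 3 were higher and 4 lower of 57 tested, 12.3% against 14.9%.

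Among 18 genes listed as NGFR partners, 15 were tested at day 5, and 1 was higher and 4 lower, where 12% of all genes tested were higher and 14.1% lower. The list also holds RTN4, OMG and MAG, which are ligands of RTN4R, and the TNF receptor relative TNFRSF19. Not every gene on it is therefore a direct partner of NGFR. RTN4R, the Nogo receptor that uses NGFR as its signalling subunit, was also lower in LLY-283 at day 5, by less than NGFR. It rose in vehicle from 11.3 ± 0.821 CPM at day 0 to 21.5 ± 1.12 CPM at day 5 (SD, n = 3), and in LLY-283 it rose from 11.5 ± 0.646 to 14.2 ± 1.09 CPM. Its day 5 log2 difference was -0.56 (SE 0.083, edgeR adjusted p = 3.9e-06) and its change in treatment effect -0.58 (SE 0.12, edgeR adjusted p = 0.00056). Over days 1, 2, 3 and 10 it was -0.15 and not called (edgeR adjusted p = 0.4). LINGO1, the remaining subunit of that receptor, was named after its values were seen and went the other way at day 5, at 0.38 (SE 0.077, edgeR adjusted p = 3e-04). The LINGO1 change in treatment effect of 0.25 was not called (edgeR adjusted p = 0.05). Over days 1, 2, 3 and 10, LINGO1 was at -0.03 (edgeR adjusted p = 0.87). IRAK1, a kinase that NGFR engages through TRAF6, was at 254.3 ± 3.11 CPM in vehicle and 193.3 ± 4.87 CPM in LLY-283, a difference of -0.37 (SE 0.036, edgeR adjusted p = 4.2e-09). Its difference over days 1, 2, 3 and 10 was -0.31, with an edgeR adjusted p of 0.042 that did not pass 0.01. ARHGDIA, an inhibitor of small GTPases that NGFR binds, was lower by a log2 difference of -0.23 (edgeR adjusted p = 4.2e-06).

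Among 16 TRK adaptors, 15 were tested at day 5, and 2 were higher and 1 lower, beside 12% and 14.1% of all genes tested. Other receptor kinases use such adaptors too, so the list is not specific to TRK receptors. PLCG1, a phospholipase that docks on activated TRK receptors, was at 333.2 ± 2.68 CPM in vehicle and 472.3 ± 23 CPM in LLY-283. Its log2 difference was 0.53 (SE 0.039, edgeR adjusted p = 4.1e-11), and its change in treatment effect was also 0.53 (edgeR adjusted p = 2.5e-08). Over days 1, 2, 3 and 10, PLCG1 was at 0.35 and not called (edgeR adjusted p = 0.067). GAB1, a docking protein, was higher by 0.18 (edgeR adjusted p = 0.0026), and the phosphatase PTPN11 was lower at -0.18 (edgeR adjusted p = 0.00019). With time, 8 of the 15 adaptors rose and 0 fell in vehicle, where 22.2% of all genes tested rose and 16.7% fell, and 7 rose and 1 fell in LLY-283, where 22.9% rose and 19.5% fell.

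Of 10 genes of precursor processing, 7 were tested at day 5, and 2 were higher and 0 lower. For this list and the next, the share of all genes tested was 12% higher and 14.1% lower. MMP9, which cleaves the BDNF precursor outside the cell, was at 198.5 ± 6.69 CPM in vehicle and 224.6 ± 12.8 CPM in LLY-283, a log2 difference of 0.20 (edgeR adjusted p = 0.00014). PLAT, the plasminogen activator tPA, was higher by 0.35 (SE 0.1, edgeR adjusted p = 0.0092). PCSK7, a proprotein convertase, was at 0.14 and did not pass (edgeR adjusted p = 0.032). Of 8 genes for the proteases that cut NGFR itself, 7 were tested, and the γ-secretase subunits PSEN2 (0.26, edgeR adjusted p = 0.0015) and NCSTN (0.19, edgeR adjusted p = 0.00061) were higher. None of the processing or cleavage genes passed the test of the change in treatment effect with edgeR.

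All 10 genes of the list of immediate-early and growth-factor response genes, which many signals besides neurotrophins induce, were tested. At day 5, 3 were higher and 1 lower, against 12% and 14.1% of all genes tested. EGR2, a zinc-finger transcription factor, was at 26.9 ± 1.53 CPM in vehicle and 40 ± 2.1 CPM in LLY-283, a log2 difference of 0.60 (SE 0.063, edgeR adjusted p = 2.1e-08). This was a fall in vehicle from 38.1 ± 0.963 CPM at day 0, while the LLY-283 change of -0.02 was not called. FOS was higher by 0.55 (edgeR adjusted p = 1.7e-05), with a difference of 0.46 at day 0 already that was not called (edgeR adjusted p = 0.21). ARC, a synaptic immediate-early gene, was lower at -0.24 (edgeR adjusted p = 0.00019). SORL1, the remaining sortilin relative above the filter, was at 1.34 ± 0.52 CPM in vehicle and 2.24 ± 0.0991 CPM in LLY-283, and its difference of 0.78 did not pass (SE 0.28, edgeR adjusted p = 0.027).

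**Figure D5:**
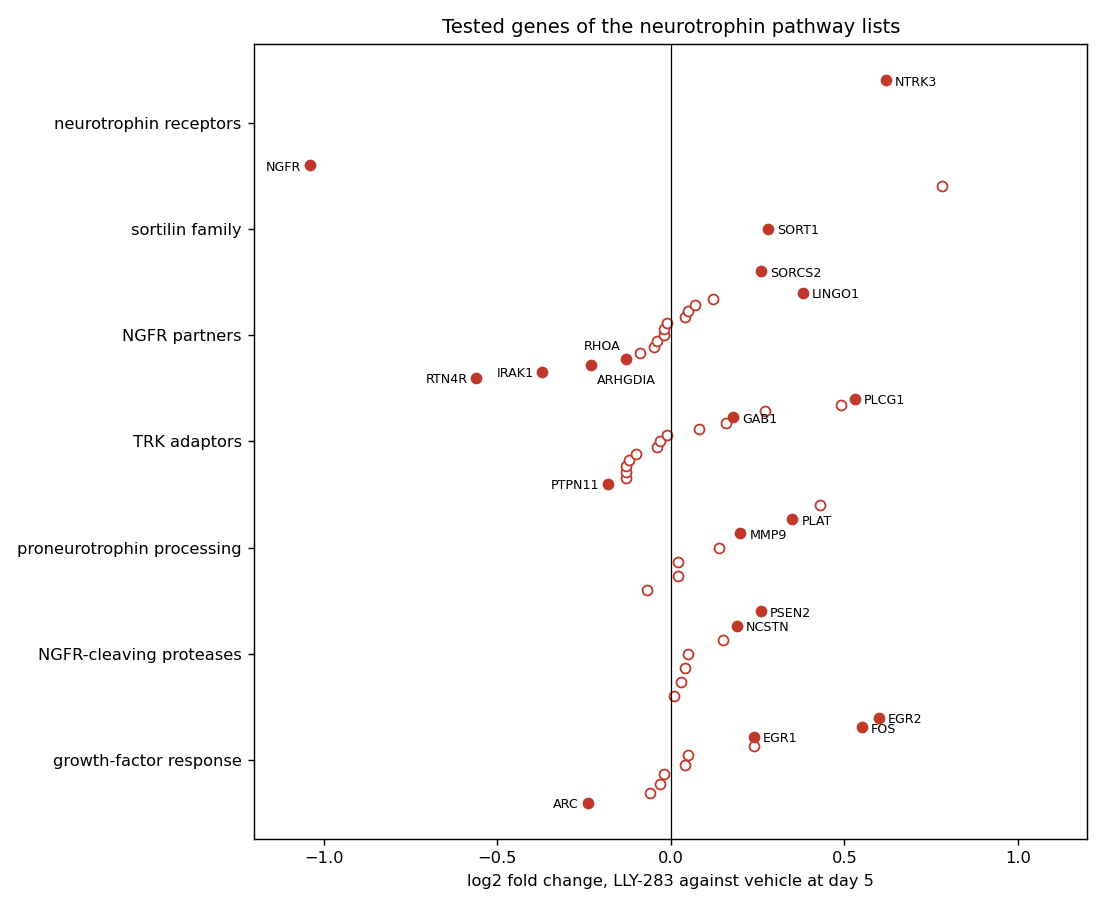
Log2 fold change of LLY-283 against vehicle at day 5 for each tested gene of the pathway lists, members included, with 1 row of points per list and filled, named points where the edgeR adjusted p is under 0.01. NGFR at -1.04 is the lowest of the genes plotted, and RTN4R at -0.56 the next.

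Over the 24 libraries and 11531 genes with a mean of at least 5 CPM, the genes whose log2 CPM followed NGFR most closely were PSME4 (Pearson r = 0.923), DIDO1 (0.902), SQLE (0.901), ZNF85 (0.88) and TENT4B (0.878). The most opposed were POSTN (-0.909) and SCN3A (-0.884). These values describe libraries that share days, treatments and normalization. SQLE, an enzyme of cholesterol synthesis, was at 1299 ± 15.9 CPM in vehicle and 842.5 ± 39.2 CPM in LLY-283 at day 5, and at 885.6 ± 85.2 and 878 ± 44.6 CPM at day 0 (SD, n = 3). POSTN, a secreted matrix protein, was at 23.5 ± 5.12 CPM in vehicle and 74.4 ± 6.02 CPM in LLY-283 at day 5, and at 49.4 and 145.7 CPM at day 10, the day when NGFR was at its lowest in LLY-283.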

How the data were processed

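Poly(A) RNA of 24 libraries had been sequenced. After trimming, the authors quantified transcripts against hg38 with kallisto, and their deposited table holds an estimated count for every gene in every library, rounded and unscaled. All 24 columns were used, and 58207 of 58676 identifiers were matched to a symbol of the GENCODE annotation on GRCh38. Upstream sequences were from RefSeq (GRCh38.p14), which matched 4 of the 6 members. Tests for differences in expression ran in edgeR 4.0.16 under R 4.3.3 (TMM, the filter on low counts by treatment and day, robust quasi-likelihood tests, Benjamini-Hochberg adjustment over all genes tested, calls at an adjusted p under 0.01). Each comparison used its own libraries, and the fit of days 1, 2, 3 and 10 had day as a factor. SE is that of the log2 fold change. DESeq2 1.42.0 and the settings given in the closing section were alternatives. The pathway genes named were the 3 of smallest p at day 5 in each list, genes sharing exon bases with a member, and the 5 most like and 3 most unlike NGFR over the libraries, of which a few are not reported here. The members, lists and tests were chosen with earlier results of these data known. In simulated counts, true log2 changes of 1 and 0.5 were recovered for 78.4% and 64.2% of genes by the day 5 test. That simulation changed only 97 and 95 of 16147 genes by these amounts, whereas 26.1% of genes were called at day 5 in the data. The adjustment for multiple tests is stricter with so few changed genes, so its recovery need not hold for the real day 5 test. They were recovered for 64.6% and 40.4% by the test of the change in treatment effect. For the test over days 1, 2, 3 and 10, the values were 79% and 56.2%. The simulation of the change in treatment effect changed 96 and 99 of 18001 genes, where 14.9% were called in the data. That of days 1, 2, 3 and 10 changed 100 and 96 of 18907, where 0.0153% were called. Aside from the added changes, each gene had the same mean in every library, so no change with day was simulated. Recovery by these tests therefore need not hold in the data either. False calls among unchanged genes were 4, 5 and 4 in these simulations, in the order given. Recovery of a difference that varies between days was not tested. Deviations from the group mean were correlated between same-numbered libraries of different groups. These correlations lay between -0.0502 and 0.0531, so repeat numbers did not pair libraries.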

Additional observations from a re-analysis of the deposited data

Results flagged for a closer look

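The log2 difference between LLY-283 and vehicle changed from day 0 to day 5 for NGFR, by -0.95, and for SORT1, by 0.27, each by the edgeR test of the interaction of treatment with day. NGFR was named by the study from the day 5 libraries, so its value is no independent evidence.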

How the results depend on the processing

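Of the 6 members, the number called was 4 at day 5, 0 at day 0, 4 with time in each treatment group, 2 for the change in treatment effect and 0 over days 1, 2, 3 and 10. At day 5 it was 2 with DESeq2 and 1 in the shared fit of all 22 libraries of days 0 to 7, and it lay between 2 and 4 when each library was left out in turn. For the change in treatment effect it was 0 in the shared fit and lay between 1 and 2 with a library left out. Library size alone, DESeq2 size factors, no filter on low counts, at least 10 counts in every library and an adjusted p under 0.05 left these counts within 1.5 times. The cause of the other shifts was not tested. With the replicate block, the counts were 4 at day 5, 0 at day 0, 4 and 4 with time and 2 for the change in treatment effect, so the block changed no call of a member, although repeat numbers did not pair the libraries.

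The shared fit took NGFR to an edgeR adjusted p of 0.059 with time in vehicle (0.71) and of 0.48 with time in LLY-283 (-0.29). Over all genes it called 2042 at day 5 against 4304, 51 for the change in treatment effect against 2742 and 0 at day 0 against 3. At an adjusted p under 0.05, 4452 genes were called for the change in treatment effect, 94 over days 1, 2, 3 and 10 and 8 at day 0. Over days 1, 2, 3 and 10, 3 genes were called, 43 with DESeq2 (24 without its independent filtering), 7 with library size alone, 564 without a filter, 1 with at least 10 counts in every library, 0 to 8 with a day left out and 0 with day 7 added. At day 0, 56 were called without a filter, 6 with the replicate block and 0 to 17 with a library left out. Values near 0 changed sign without being called. At day 0, with each library left out in turn, NTRK3 lay between -0.02 and 0.30, SORCS2 between -0.03 and 0.08, with values of -0.01 without vehicle repeat 3 or LLY-283 repeat 1, and SORT1 between -0.02 and 0.05. Over days 1, 2, 3 and 10, NTRK3 was at -0.0033 with DESeq2, with or without its independent filtering, -0.001 with DESeq2 size factors and -0.0028 with day 7 added, and lay between -0.08 and 0.09 with a day left out (-0.01 without day 1 and -0.0027 without day 2). SORCS2 was at -0.0033 with day 7 added and between -0.03 and 0.13 with a day left out. Depth limits NTRK2, BDNF, NTF3 and NTF4, which stayed under the filter, and the days with 1 library per treatment group have 3 residual degrees of freedom in all.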
